A study of Homo sapiens with 3 samples.

Results

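The response of colon cancer cells to Cdx2 was set against their response to Cdx1, gene by gene, 24 h after induction. DLD1 is a human colorectal adenocarcinoma line. Its TetOff clones, each derived from a single cell, carried an integrated transgene for FLAG-tagged mouse Cdx2 or Cdx1, which was silent in medium with 0.5 µg/mL doxycycline (DOX) and expressed after its withdrawal. The RNA was hybridised to TORAY 3D-Gene arrays in 2 colours, with induced cells in Cy3 and the non-induced cells of that clone in Cy5. There was 1 array for Cdx2 24 h (DOX withdrawn for 24 h) and 1 for Cdx1 24 h, and the remaining array, Cdx1 12 h, is given beside them. For each gene the log2 ratio of Cy3 over Cy5 on the Cdx1 array was subtracted from that on the Cdx2 array, after loess normalization within each array. Probes had to stand above the blank spots (their trimmed mean plus 2 SD) in both channels of both arrays. These conditions kept 15254 of the 17559 genes on the arrays.

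CDX1 and CDX2 are homeodomain transcription factors of the intestinal epithelium. They bind AT-rich DNA through nearly identical homeodomains, and in the gut they activate genes of enterocyte identity such as those for brush border and cell adhesion proteins. Both are known as restraints on growth of the colonic epithelium, and CDX2 is often reduced in poorly differentiated colon cancers.

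Each group was a single array, with no dye swap, so no difference below has a test or a replicate error. A gene was counted as different where the gap reached 2-fold, that is 1 on the log2 scale. The clone, the expressed protein and the array change together between the Cdx2 and Cdx1 values, and within each array DOX, dye and induction change together, so that these cannot be told apart. Per the methods, Cdx1 expression was induced faster in its clone than Cdx2 was in its own. The pair of arrays is matched in hours but not in the speed of induction, and may differ in the amount of protein. As a guide to technical spread, 1825 genes had 2 usable probes, and the SD between probes of a gene was 0.122 for the difference. Cy3 over Cy5 is likely induced over non-induced, as titles, dye labels of each source and the legend of the study all have it. The cell line entries of the channels state the opposite, and every sign below would turn if they were right.

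The CDX2 probe had a log2 ratio of 0.64 on the Cdx2 array, against 0.03 on the Cdx1 24 h array and -0.46 on the Cdx1 12 h array. The CDX1 probe lay at -0.03 on the Cdx2 array and -0.00 on the Cdx1 24 h array, and CDX4 lay at 0.04 and 0.03. Human probes may or may not read mouse transcripts, so the flat CDX1 value does not check the induction, and the CDX2 value cannot be assigned to the transgene or to the cell's own gene. Of the epithelial markers, EPCAM had non-induced log2 intensities of 13.9 in the Cdx2 clone and 13.6 in the Cdx1 clone, and KRT18 had 15.2 and 15.3. Among 10 fibroblast, immune and endothelial markers on the array only 4 (CD14, DCN, VWF and CDH5) passed the blank limit in all 4 channels.

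The overall response was the same in kind and smaller with Cdx2. The log2 ratios of the 15254 genes had an SD of 0.299 on the Cdx2 array and 0.404 on the Cdx1 24 h array. Pearson's r between these arrays was 0.854 across genes (genes are no replicates), and r between the Cdx1 24 h and Cdx1 12 h arrays was 0.855. An orthogonal line through all genes had a slope of 0.705, meaning that a change of 1 with Cdx1 went with a change of about 0.705 with Cdx2. To describe responsive genes without choosing them on a 24 h array, those at least 2-fold changed on the Cdx1 12 h array were taken. These come from the Cdx1 clone, so that a larger response to Cdx1 at 24 h is partly set by the choice. The 176 that rose there had median log2 ratios of 0.87 with Cdx2 and 1.26 with Cdx1 at 24 h, and the response was smaller with Cdx2 in 154 of them. The 61 that fell there had medians of -0.86 with Cdx2 and -1.29 with Cdx1, with a smaller response to Cdx2 in 57.

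**Figure D1:**
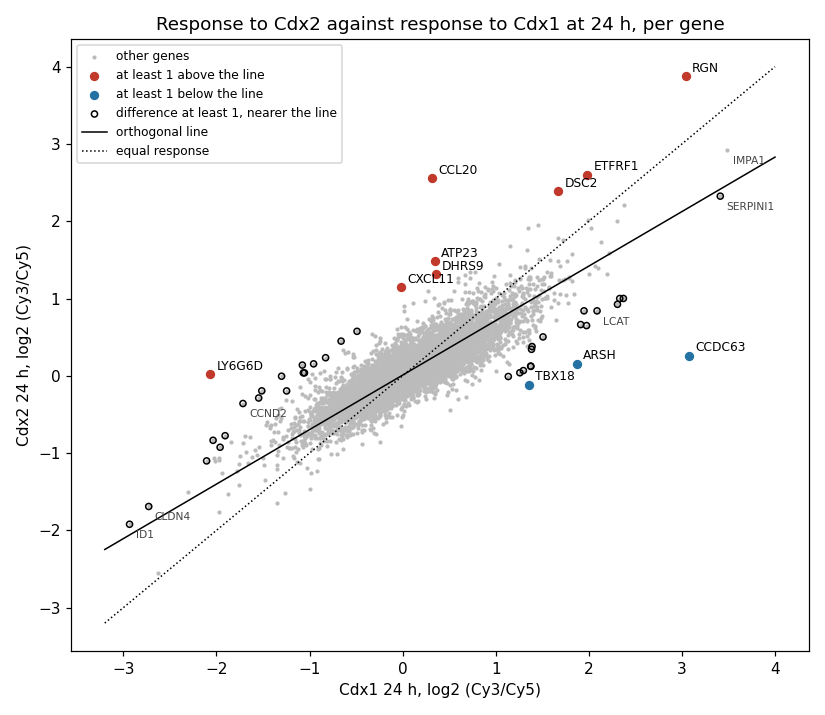
Log2 ratio (Cy3/Cy5) on the Cdx2 24 h array (vertical axis) against that on the Cdx1 24 h array (horizontal axis) for 15254 genes, 1 array each. The solid line is the orthogonal line (slope 0.705), the dotted line marks equal responses, 8 genes (red) lie at least 1 above the solid line and 3 (blue) at least 1 below it, and open circles are other genes with a difference of at least 1.

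IMPA1, inositol monophosphatase, and SERPINI1, the serine protease inhibitor neuroserpin, had among the highest ratios on both arrays. SERPINI1 had log2 ratios of 2.32 with Cdx2 and 3.41 with Cdx1, a difference of -1.09, but lay only -0.09 from the line. ID1, an inhibitor of basic helix-loop-helix factors, had -1.92 with Cdx2 and -2.93 with Cdx1, and the tight junction gene CLDN4 had -1.69 and -2.73. Both differed by more than 1 (1.01 and 1.04) and lay 0.14 and 0.22 from the line. The 3 were named for lying near the line, and after median centring SERPINI1, ID1 and CLDN4 lay -0.38, 0.56 and 0.64 from it.

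In all, 22 genes (0.144% of those compared) had a ratio at least 2-fold higher with Cdx2 than with Cdx1, and 19 (0.125%) had one at least 2-fold lower. This balance moved with centring and scaling, to 23 higher and 34 lower after median centring and 19 higher and 7 lower after both arrays were brought to one spread. The treatment of dim probes moved the counts further, to 85 higher and 100 lower with offset 0, 224 and 214 after subtraction of the blank mean, and 159 and 278 with the authors' values. Each of the 41 genes rested on 1 probe. Of the 22 higher genes, 15 fell at least 2-fold with Cdx1, and 3 rose at least 2-fold with Cdx2. All 19 lower genes rose at least 2-fold with Cdx1, and 2 of them did so with Cdx2. The differences thus lay mostly on genes that moved with Cdx1 and moved less, or not, with Cdx2. Measured from the line, 8 genes (0.0524%) stood at least 1 above it and 3 (0.0197%) at least 1 below it, or 44 and 25 with offset 0 and 103 and 107 with the authors' values. No gene changed by 0.5 or more in opposite directions on both arrays. That count depended on how dim probes were treated, since it was 6 with no offset and 40 after subtraction of the blank mean.

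**Figure D2:**
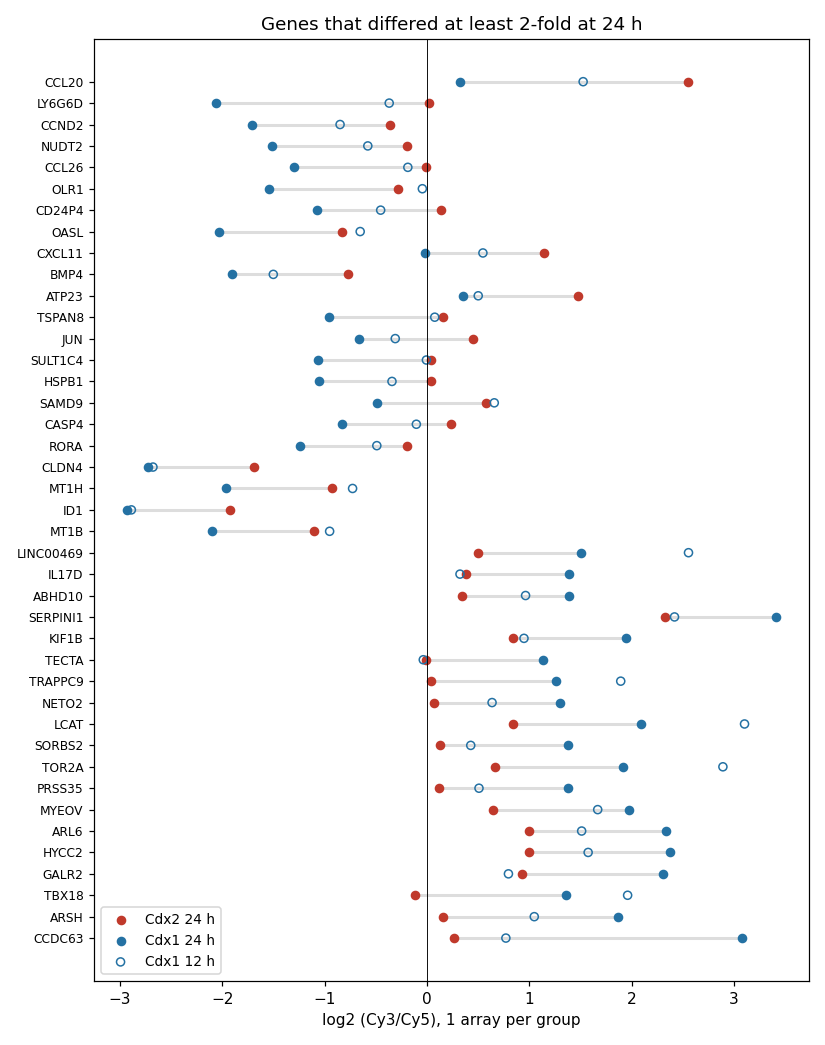
Log2 ratio (Cy3/Cy5) of the 41 genes whose Cdx2 and Cdx1 responses differed at least 2-fold at 24 h, 1 point per array. Red is Cdx2 24 h, filled blue Cdx1 24 h and open blue Cdx1 12 h, with genes ordered by the difference. For CCL20 the Cdx2 value (2.55) lies to the right of both Cdx1 values, whereas for MT1H and OASL it lies next to the Cdx1 12 h value.

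The gene furthest above the line encodes a secreted signal. CCL20, a chemokine of the intestinal epithelium that attracts CCR6-bearing lymphocytes and dendritic cells, had a log2 ratio of 2.55 with Cdx2, against 0.32 and 1.53 with Cdx1 at 24 and 12 h. Its difference at 24 h was 2.23 (4.70-fold), and it stood 2.32 above the line. Induced cells had log2 intensities of 11.20 with Cdx2 and 8.66 with Cdx1, and non-induced cells had 8.65 in the Cdx2 clone and 8.34 in the Cdx1 clone, so the gap lay in the induced cells. The non-induced Cdx1 cells themselves differed between times, with 8.34 at 24 h and 6.94 at 12 h. CCL20 was the only one of the 22 higher genes that also exceeded the Cdx1 12 h ratio by at least 1. CXCL11, a chemokine of the interferon response that binds CXCR3, had log2 ratios of 1.15 with Cdx2, against -0.02 and 0.55 with Cdx1 at 24 and 12 h. Its induced level was 8.35 with Cdx2 and 7.00 with Cdx1, while the non-induced levels were close to each other (7.21 and 7.01).

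LY6G6D, which encodes a GPI-anchored surface protein of the LY6 family, gave the second largest difference, 2.09. It had log2 ratios of 0.02 with Cdx2, against -2.07 and -0.37 with Cdx1 at 24 and 12 h. The gap came from both channels. Non-induced cells had 7.82 in the Cdx2 clone and 8.93 in the Cdx1 clone, and induced cells had 7.84 with Cdx2 and 6.87 with Cdx1. A lower starting level in the Cdx2 clone thus stands beside this value, and its part in the result was not tested.

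The other genes above the line had positive ratios on both arrays, and higher ones with Cdx2 in spite of its smaller overall response. RGN, the calcium-binding protein regucalcin, had log2 ratios of 3.87 with Cdx2, against 3.04 and 2.06 with Cdx1 at 24 and 12 h, and stood 1.72 above the line. DSC2, a desmosomal cadherin reported as a CDX target, had 2.39 with Cdx2, 1.67 with Cdx1 at 24 h and 1.57 at 12 h. ETFRF1, a regulator of the electron transfer flavoprotein, had 2.60, 1.98 and 1.67 in the same order of arrays. For these genes the plain differences were 0.83, 0.71 and 0.61, so they differed by less than 2-fold, and they stand out only against the line. ATP23, a mitochondrial metallopeptidase, had 1.48 with Cdx2, 0.35 with Cdx1 at 24 h and 0.50 at 12 h. DHRS9, a short-chain dehydrogenase that acts on retinol, had 1.31, 0.36 and 0.84. Non-induced levels of RGN, DSC2, ETFRF1, ATP23 and DHRS9 differed between the clones by -0.34 to 0.47, less than their distances from the line.

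Of the 3 genes below the line, CCDC63, which encodes a dynein arm protein of the sperm flagellum, differed most. It had log2 ratios of 0.26 with Cdx2 and 3.08 with Cdx1 at 24 h, a difference of -2.81, and the Cdx1 12 h array gave 0.77. Its induced level was 6.29 with Cdx2 and 9.5 with Cdx1, and its non-induced levels were 6.03 and 6.42. A second CCDC63 probe was not above the blank spots in any of the 4 channels, so the value rests on the one probe. ARSH, an arylsulfatase gene, had ratios of 0.16 with Cdx2, 1.87 with Cdx1 at 24 h and 1.05 at 12 h. Like CCDC63 it was dim on the Cdx2 array, with levels of 6.49 in induced and 6.34 in non-induced cells. TBX18, a T-box transcription factor of heart and ureter development, had -0.12 with Cdx2 against 1.36 with Cdx1 at 24 h and 1.96 at 12 h. It was thus the only one of the 3 with a ratio at least 2 on the log2 scale lower with Cdx2 than on the Cdx1 12 h array (difference -2.08). Its second probe was also below the blank limit in all 4 channels.

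CDX proteins bind a short AT-rich motif, whose core was searched as TTTAT and, on the other strand, ATAAA, in the promoters of these genes (RefSeq, GRCh38.p14, 250 bases before to 50 after the start). ATAAA is also part of the TATA box, TATAAA. The motif stood in 35.8% of all 27305 promoters, and in 30.5% when matches inside TATAAA were left out. Among the compared genes with a promoter in the table it stood in 25.3% (20.5% outside TATAAA). It was found in 5 of 7 genes above the line (3 outside TATAAA) and in 1 of 1 below it. In the 2-fold higher genes it stood in 9 of 18 (6 outside), against 3 of 11 of the lower genes (3 outside). Outside TATAAA these shares were 33.3% of the higher and 27.3% of the lower genes. These are small counts, and a match describes letters and is not a binding site. Promoters of CCL20 (chr2:227813592-227813891, plus strand), CXCL11 (chr4:76036021-76036320, minus strand), LY6G6D (chr6:31715098-31715397, plus strand) and TBX18 (chr6:84764549-84764848, minus strand) are shown. Among genes at least 1 from the line with a match present, these differed most between Cdx2 and Cdx1 at 24 h. The promoter of DSC2 (chr18:31102372-31102671, minus strand) is shown as an example that holds none. That of RGN, which is not shown, holds none either. Capitals mark TTTAT and ATAAA, and each sequence is written along its gene.
CCL20: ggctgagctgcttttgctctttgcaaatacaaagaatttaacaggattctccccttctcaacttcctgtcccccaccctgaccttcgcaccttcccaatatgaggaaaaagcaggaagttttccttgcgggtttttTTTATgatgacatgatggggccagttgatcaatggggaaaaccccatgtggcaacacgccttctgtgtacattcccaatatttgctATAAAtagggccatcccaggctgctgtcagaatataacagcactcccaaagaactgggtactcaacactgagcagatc
CXCL11: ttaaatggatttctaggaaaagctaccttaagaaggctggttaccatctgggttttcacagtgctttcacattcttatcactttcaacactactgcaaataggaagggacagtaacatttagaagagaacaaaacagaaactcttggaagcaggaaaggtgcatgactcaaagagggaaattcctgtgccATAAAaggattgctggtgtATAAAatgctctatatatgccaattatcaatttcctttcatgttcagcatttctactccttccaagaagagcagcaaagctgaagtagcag
LY6G6D: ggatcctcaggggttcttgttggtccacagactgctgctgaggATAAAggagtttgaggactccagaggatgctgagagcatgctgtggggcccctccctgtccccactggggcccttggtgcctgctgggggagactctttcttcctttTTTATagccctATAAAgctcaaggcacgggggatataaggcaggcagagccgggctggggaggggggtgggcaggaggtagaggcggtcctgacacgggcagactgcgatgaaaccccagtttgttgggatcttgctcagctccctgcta
TBX18: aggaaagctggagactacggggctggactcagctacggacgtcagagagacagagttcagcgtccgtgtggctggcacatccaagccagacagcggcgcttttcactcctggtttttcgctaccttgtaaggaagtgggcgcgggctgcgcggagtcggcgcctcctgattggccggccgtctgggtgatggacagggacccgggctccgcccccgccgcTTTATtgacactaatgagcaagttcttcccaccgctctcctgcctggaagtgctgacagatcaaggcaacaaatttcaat
DSC2: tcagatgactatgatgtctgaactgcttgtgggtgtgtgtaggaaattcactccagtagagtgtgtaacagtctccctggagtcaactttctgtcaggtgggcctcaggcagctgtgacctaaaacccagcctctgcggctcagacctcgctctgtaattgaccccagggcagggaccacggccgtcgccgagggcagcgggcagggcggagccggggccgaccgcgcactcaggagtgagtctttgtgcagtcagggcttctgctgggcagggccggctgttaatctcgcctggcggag
In the CCL20 promoter the TTTAT match lies outside a TATA box and the ATAAA match inside one. CXCL11 has 2 ATAAA matches, of which 1 lies inside TATAAA. LY6G6D has 2 ATAAA matches and 1 TTTAT match, of which 2 lie inside TATAAA on one strand or the other, and TBX18 has a single TTTAT.

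The remaining genes that were higher with Cdx2 were mainly genes whose fall with Cdx1 was weak or missing with Cdx2. They are described singly, as no theme among them was tested. CCL26, an eosinophil-attracting chemokine, had log2 ratios of -0.01 with Cdx2, -1.30 with Cdx1 at 24 h and -0.19 at 12 h. OLR1, a receptor for oxidized LDL, had -0.29, -1.55 and -0.05, and OASL, an interferon-induced antiviral protein, had -0.83, -2.04 and -0.65. CASP4, an inflammatory caspase, had 0.23 with Cdx2 and -0.83 with Cdx1 at 24 h, and SAMD9, an antiviral factor, had 0.58 and -0.49. For OLR1, OASL and SAMD9 the Cdx1 12 h ratio was higher than the Cdx2 ratio, so the direction depended on which Cdx1 array was used.

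JUN, a subunit of the AP-1 factor, had 0.45 with Cdx2, -0.66 with Cdx1 at 24 h and -0.31 at 12 h. BMP4, a ligand of the TGF-beta family, had -0.78, -1.91 and -1.5, and HSPB1, a small heat shock protein, had 0.04, -1.05 and -0.34. TSPAN8, a tetraspanin of epithelial cancers, had 0.15, -0.96 and 0.08. NUDT2, which hydrolyses diadenosine tetraphosphate, had -0.19, -1.51 and -0.58, and RORA, a nuclear receptor, had -0.20, -1.25 and -0.49. Thus the Cdx2 ratio lay above both Cdx1 ratios for each of these 6 genes, by only 0.08 for TSPAN8 at 12 h. For JUN and RORA the clones differed more in non-induced cells (-0.69 and -0.93) than in induced cells (0.42 and 0.12). Non-induced TSPAN8 stood at 12.37 in the Cdx2 clone, and at 11.42 and 10.54 in the Cdx1 clone at 24 and 12 h. Its induced level was 12.52 with Cdx2, and 10.46 and 10.61 with Cdx1 at 24 and 12 h. The part of these non-induced levels was not tested.

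Other genes differed by more before induction. CCND2, cyclin D2 of the G1 phase, had ratios of -0.36 with Cdx2 and -1.72 with Cdx1, but its non-induced level was 6.76 in the Cdx2 clone and 9.11 in the Cdx1 clone. CD24P4, a pseudogene copy of the surface glycoprotein gene CD24 whose probe may read CD24 itself, had non-induced levels of 8.87 and 11.29, and SULT1C4, a sulfotransferase, had 6.38 and 7.80. With LY6G6D, these were the 4 of 22 higher genes whose non-induced level was at least 1 lower in the Cdx2 clone, and none was at least 1 higher. Over all genes, 122 (0.8%) differed that much between the non-induced clones, and 239 (1.57%) between the induced cells. In 6 of the 22 (CCND2, CD24P4, SULT1C4, LY6G6D, JUN and RORA) the non-induced part of the difference was the larger one. The part of these starting levels in the differences was not tested. Among the 19 lower genes no non-induced level differed by 1, and 17 differed by at least 1 between the induced cells.

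**Figure D3:**
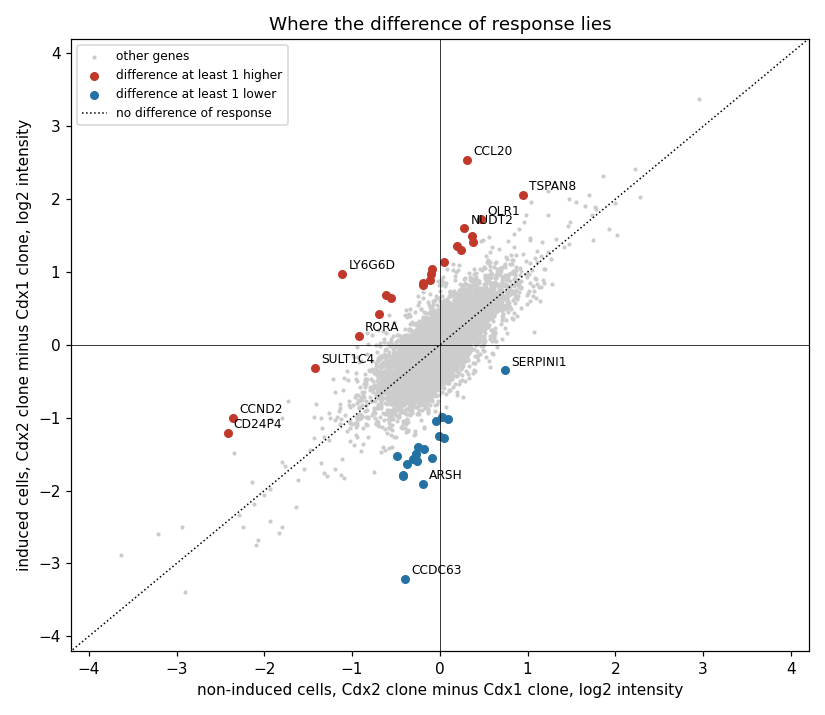
Log2 intensity of the Cdx2 clone minus the Cdx1 clone at 24 h in induced cells (vertical axis) against non-induced cells (horizontal axis), 1 point per gene. The dotted line marks equal responses, red genes were at least 2-fold higher and blue genes at least 2-fold lower in response with Cdx2, and CCND2 and CD24P4 lie far to the left (-2.36 and -2.42) because they were lower in the non-induced Cdx2 clone.

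The lower genes were a mixed group of genes that rose with Cdx1. Their median log2 level was 7.36, against 9.36 for the higher genes and 7.13 over all genes. TECTA, PRSS35 and TRAPPC9 lay between 5.93 and 6.13 in both channels of the Cdx2 array, and the offset draws ratios of dim probes towards 0. GALR2, a galanin receptor, had log2 ratios of 0.92 with Cdx2, 2.31 with Cdx1 at 24 h and 0.80 at 12 h. HYCC2, part of a complex that anchors a phosphatidylinositol kinase, had 1.0, 2.37 and 1.58, and ARL6, a small GTPase of cilia, had 1.0, 2.33 and 1.51. These 3 genes lay at most 0.71 from the line, but after median centring GALR2, HYCC2 and ARL6 lay at -1.12, -1.08 and -1.10. LCAT, which esterifies cholesterol in plasma lipoproteins, had 0.84 with Cdx2, 2.09 with Cdx1 at 24 h and 3.10 at 12 h. TOR2A, a torsin ATPase, had 0.66, 1.91 and 2.89, and the non-coding LINC00469 had 0.50, 1.51 and 2.56. TRAPPC9, a vesicle transport protein, had 0.04, 1.26 and 1.89. LCAT, TOR2A, LINC00469, TRAPPC9, TBX18 and MYEOV (0.65, 1.98 and 1.67) were the 6 lower genes that also lay at least 1 below the Cdx1 12 h array. Besides SERPINI1, the other lower genes were PRSS35, SORBS2, NETO2, TECTA, KIF1B, ABHD10 and IL17D, with ratios of -0.01 to 0.84 with Cdx2 and 1.14 to 1.95 with Cdx1 at 24 h.

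Each comparison at 24 h also had the Cdx1 12 h array beside it. All 22 higher genes had a Cdx2 ratio nearer to the Cdx1 12 h ratio than to the Cdx1 24 h ratio, and so had 14 of the 19 lower genes. In the higher genes, 17 ratios lay above the 12 h ratio as well, and in the lower genes 16 lay below it. Over all genes, 38 moved by at least 1 between the Cdx1 arrays, and the Cdx2 ratio was nearer to the 12 h value in 25 of them. Since these genes were taken for their distance from the Cdx1 24 h array, nearness to the other array is partly set by that choice, and it is given as a description.

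Genes with 2 probes gave a check within the arrays. The difference had r = 0.706 between probes over the 1825 genes. Both probes passed 1.5-fold in 20 genes, with the same sign in all 20, against 138 genes (0.905%) higher and 151 (0.99%) lower past 1.5-fold over all genes. AGR2, a protein disulfide isomerase of mucus-secreting cells, had differences of 0.92 and 0.86 by its 2 probes. Its log2 ratios were 0.31 with Cdx2 and -0.59 with Cdx1 at 24 h, with 0.46 at 12 h. KIT, the stem cell factor receptor, had differences of 0.81 and 1.01, and GYG1, the primer of glycogen synthesis, had 0.80 and 0.83. GYG1 stood out since it was flat with Cdx1 (0.02 at 24 h and 0.20 at 12 h) and higher with Cdx2 (0.84). IFIT2, RND3, RHOB, HACL2, LAMA2, AVPI1, ANGPT1, IGFL2 and IGFL4 were higher by both probes as well. BLZF1, a Golgi protein, had -0.92 and -0.93, and CENPE, a kinetochore motor, had -0.79 and -0.69. SLF1, SRP54, PHF20L1, ELP4, MORN2 and H3-3B were lower by both. For IGFL2, ANGPT1 and PHF20L1 the non-induced Cdx2 clone was dimmer, with levels that differed from the Cdx1 clone by -3.63, -1.79 and -1.84. It was dimmer also for LAMA2, RHOB, KIT, HACL2 and IGFL4, by -0.98, -0.82, -0.70, -0.65 and -0.64. Their differences of response were 0.82, 0.83, 0.91, 0.85 and 0.72. For RND3, AGR2, AVPI1 and GYG1 the non-induced clones differed by -0.02, 0.04, 0.01 and 0.205. The part of these starting levels was not tested.

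Probe choice could also decide a value. Of the 6 genes with 1 probe past 2-fold, both probes had the same sign in 3. GDF15, a stress-induced cytokine, had differences of 0.03 and 1.65, and BAMBI, a decoy receptor of BMP signalling, had 1.11 and -0.06. The 0.03 probe of GDF15 was dim in every channel, at 6.24 to 6.31, whereas the other probe fell on both arrays, with ratios of -1.73 for Cdx2 and -3.38 for Cdx1. The -0.06 probe of BAMBI was also dim in every channel, at 5.86 to 6.00. Its other probe had ratios of -0.77 for Cdx2 and -1.88 for Cdx1.

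**Figure D4:**
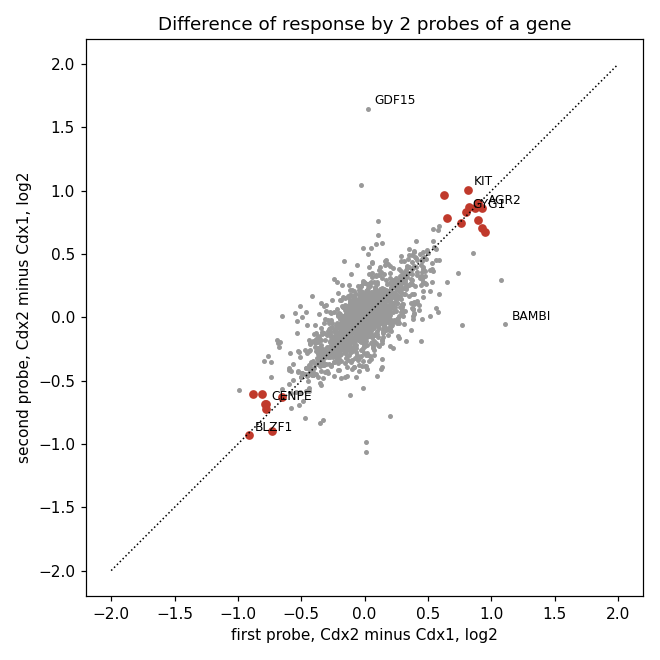
Cdx2 minus Cdx1 difference (log2) by one probe (horizontal axis) and the other probe (vertical axis) of 1825 genes with 2 usable probes. Red marks the 20 genes past 1.5-fold by both probes, the dotted line marks equal values, and GDF15 and BAMBI are genes whose probes disagreed.

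Gene lists were then described by their counts and medians, with no set test. Over all genes the median difference was -0.0025 and the median distance from the line -0.01. Of the 15254 genes, 7078 lay above the line and 8176 below it, and 7508 had a difference above 0 and 7746 below 0, and the counts within each list are to be read against these. In all, 73 genes (0.479%) lay at least 1.5-fold above the line and 34 (0.223%) at least 1.5-fold below it. By median distance from the line the lowest list was that of the integrated stress response, the programme by which ATF4 raises amino acid synthesis and transport. Its 24 genes had a median ratio of -0.87 with Cdx2, -0.70 with Cdx1 at 24 h and -0.21 at 12 h. The fall of the median was thus larger with Cdx2. The difference was below 0 in 14 of the 24 genes and above 0 in 10. Measured from the line, 17 of 24 genes lay below it, 4 of them by at least 1.5-fold. ASNS, asparagine synthetase, had -0.86 with Cdx2, -0.25 with Cdx1 at 24 h and 0.07 at 12 h. CHAC1, which degrades glutathione, had -1.65, -1.35 and -0.69, and SLC7A5, a carrier of large neutral amino acids, had -1.51, -1.26 and -0.76. DDIT4, an mTORC1 inhibitor, had -2.55, -2.63 and -1.37. The serine and one-carbon enzymes PHGDH, PSAT1 and MTHFD2 had -0.95, -1.02 and -1.08 with Cdx2, against -0.64, -0.76 and -0.91 with Cdx1. Not all members went that way. GDF15 (mean of 2 probes) had -0.87 with Cdx2 and -1.71 with Cdx1, and NUPR1 had -0.29 and -0.83. TRIB3, a pseudokinase, had -1.13 with Cdx2 and -1.66 with Cdx1, and CTH, an enzyme of cysteine synthesis, was higher (1.15 and 0.89). The median distance of the list, -0.30, was negative under every alternative, from -0.41 to -0.20.

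The list of MYC targets and of ribosome biogenesis genes, which make and process ribosomal RNA, fell by similar medians on both arrays. The medians were -0.63 with Cdx2 and -0.67 with Cdx1, where the line would give a smaller fall. The difference was above 0 in 23 of 33 genes (median 0.14). By contrast, 27 of 33 lay below the line (median distance -0.12, but 0.03 after median centring). NPM1, a nucleolar histone chaperone, had -1.47 with Cdx2 and -1.0 with Cdx1. NOLC1, a nucleolar phosphoprotein, had -1.04 and -1.18, and SRM, spermidine synthase, had -1.41 and -1.76.

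Mitosis and DNA replication genes were lower with Cdx2. Their median ratio was 0.03 with Cdx2 and 0.24 with Cdx1 at 24 h, and the difference was below 0 in 28 of 34 genes (median -0.18). CENPF, a kinetochore protein, had 0.49 and 1.05, TTK, a spindle checkpoint kinase, 0.49 and 1.03, and CDC45, a part of the replicative helicase, -0.08 and 0.45. KIF20A, a kinesin of cytokinesis, went the other way, at 0.30 with Cdx2 and -0.34 with Cdx1. For KIF20A the clones differed by -1.09 in non-induced cells and by -0.45 in induced cells. The list's median level in non-induced cells was also lower in the Cdx2 clone, by 0.14 on the log2 scale. Among cyclins, CCNE2, which acts at the G1/S transition, had 0.04 with Cdx2 and 0.66 with Cdx1, and CCND1 had -0.33 and 0.16. CDKN2C, a CDK4/6 inhibitor, had 0.78 and 1.5. On the Cdx1 12 h array CCNE2 had 0.71 and CCND1 -0.37. Between the clones, CCND1 differed by 0.62 in non-induced cells and 0.12 in induced cells, and CCNE2 by 0.37 and -0.24. The non-induced Cdx1 level of CCND1 at 24 h minus that at 12 h was -0.91. The part of these non-induced levels was not tested.

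Metallothioneins, small metal-binding proteins, fell with Cdx1 at 24 h and less with Cdx2. MT1H had -0.92 with Cdx2, -1.96 with Cdx1 at 24 h and -0.73 at 12 h, and MT1B had -1.10, -2.11 and -0.95. MT1X had -0.79, -1.64 and -0.57, and MT2A had -0.65, -1.43 and -0.60. The difference was above 0 in 8 of 9 genes (median 0.59), and 5 passed 1.5-fold. Against the Cdx1 12 h array the median difference was -0.05, and the ratios of MT1H, MT1B, MT1X and MT2A lay near the Cdx1 12 h values. The median ratios over all 9 genes, which include flat members, were -0.15 with Cdx2, -0.49 with Cdx1 at 24 h and -0.55 at 12 h, so that single members and the list median place the arrays differently. In non-induced Cdx1 cells MT1H and MT1B were brighter at 24 h than at 12 h, by 0.85 and 0.90. The genes are near-identical copies whose probes may read each other, so they count as 1 observation rather than several.

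HOX genes set position along the body axis and include known CDX targets. Their median difference was 0.08, and 27 of 36 lay above the line (median 0.10, positive under every alternative), against 7078 of all 15254 genes. HOXA9 had 0.29 with Cdx2 and -0.62 with Cdx1 at 24 h, HOXA7 had 1.01 and 0.34, and HOXB7 had 0.60 and -0.06. HOXA7 and HOXB7 exceeded the Cdx1 12 h values too, which were 0.03 and 0.14. The gap of HOXA7 lay in the non-induced cells, with 8.83 in the Cdx2 clone and 9.47 in the Cdx1 clone. Its induced levels were 9.84 and 9.80. HOXB7 had non-induced levels of 10.72 and 10.73. The part of the starting level of HOXA7 was not tested. Members of the HOXC and HOXD groups differed less, between -0.14 for HOXC9 and 0.17 for HOXC6. HOXA11 fell on both arrays, with -0.85 and -1.41.

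Interferon response genes had a median distance of 0.09 from the line, and 21 of 30 lay above it. IFITM1, a membrane protein that restricts viral entry, had 0.95 with Cdx2, 0.11 with Cdx1 at 24 h and 0.17 at 12 h, with non-induced levels of 7.26 and 7.27. ISG15, a ubiquitin-like modifier, had 0.28, -0.53 and -0.13, and IFIT3, an RNA-binding antiviral protein, had 0.09, -0.70 and 0.08. RIGI, a sensor of viral RNA, had 0.95, 0.45 and 0.73. None of these ratios with Cdx2 reached 2-fold, and the list's median with Cdx2 was 0.04. IFI44 lay below the line with 0.03 with Cdx2 and 0.47 with Cdx1, and MX1, RSAD2 and OAS2 stayed within 0.14 of 0 on both arrays. Of the chemokine, interleukin and NF-kB list, 24 of 32 were above 0 in difference (median 0.12). Beside CCL20 and CXCL11, IL18, an epithelial cytokine, had 1.19 with Cdx2 and 0.67 with Cdx1. CXCL8, a neutrophil chemokine, ran the other way with -0.12 with Cdx2, 0.31 with Cdx1 at 24 h and 1.31 at 12 h.

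**Figure D5:**
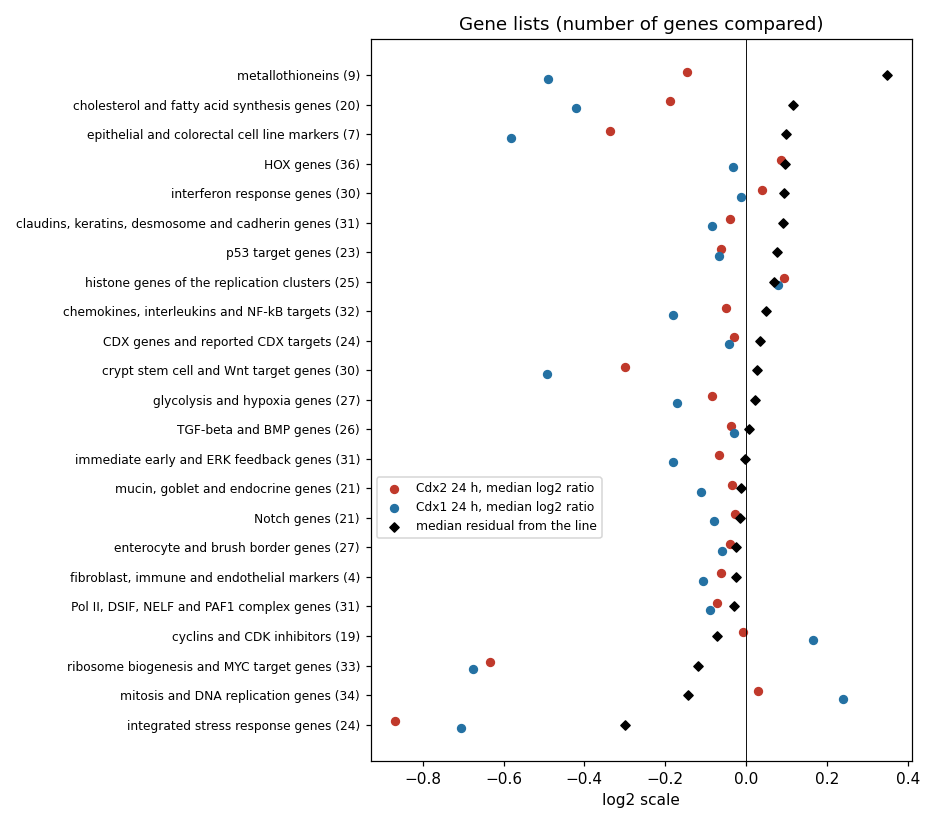
Median log2 ratio of each gene list on the Cdx2 24 h array (red) and the Cdx1 24 h array (blue) with the median distance from the line (black diamond), on a log2 scale, ordered by that distance. The integrated stress response lies lowest (-0.30) and the metallothioneins highest (0.35), while the crypt and Wnt list lies at 0.03.

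Crypt stem cell and Wnt target genes fell less with Cdx2, near the degree that the line gives. Their median was -0.30 with Cdx2 and -0.49 with Cdx1, with a difference above 0 in 23 of 30 genes, against 7508 of all 15254. Their median distance from the line was 0.03, or 0.13 after median centring. SOX9, a crypt transcription factor, had -0.64 and -1.42, AXIN2, a feedback inhibitor of Wnt signalling, had -0.72 and -1.38, and LGR5, a stem cell receptor, had -0.42 and -0.69. CD44, an adhesion receptor, had -0.19 and -0.89, with non-induced levels of 6.97 in the Cdx2 clone and 8.02 in the Cdx1 clone. For SOX9 the clones differed by -0.62 in non-induced cells and by 0.16 in induced cells. Cholesterol and fatty acid synthesis genes likewise had medians of -0.19 and -0.42, among them FASN, fatty acid synthase, with -0.99 and -1.69. For FASN the clones differed by -0.68 in non-induced cells and by 0.02 in induced cells. The part of these starting levels was not tested. The median non-induced difference of the cholesterol and fatty acid list was -0.35. Against the Cdx1 12 h array the median of that list was -0.04.

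Known CDX targets did not separate the homologues as a list. The median difference of the 24 compared genes was 0.09, and 2 passed 1.5-fold, DSC2 and the CDX2 probe itself. KRT20, a keratin of differentiated enterocytes, had 0.86 with Cdx2, 0.51 with Cdx1 at 24 h and 0.72 at 12 h. VIL1, the brush border protein villin, had -0.86, -1.15 and -0.36, and LGALS4, galectin-4, had -0.46, -0.19 and -0.22. The 27 enterocyte genes had a median difference of 0.02. TSPAN1, a tetraspanin, had -0.46 with Cdx2 and -1.11 with Cdx1, and CA2, carbonic anhydrase of enterocytes, had 0.87 and 1.26. In the mucin, goblet and endocrine list MUC13, a membrane mucin, had -0.42 with Cdx2, -1.30 with Cdx1 at 24 h and -0.25 at 12 h. Genes of RNA polymerase II, DSIF, NELF and PAF1 complexes had a median difference of -0.01, and POLR2K, a small subunit shared by the RNA polymerases, was the member furthest from 0, with 0.44 and 1.29.

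Claudins, keratins, desmosomal proteins and cadherins had a median difference of 0.12, above 0 in 21 of 31 genes. KRT18, a keratin of simple epithelia, had -1.5 with Cdx2 and -2.31 with Cdx1, and CDH3, P-cadherin, had -0.24 and -0.76. The remaining lists had median differences of 0.01 for TGF-beta and BMP genes, 0.02 for Notch genes, 0.03 for immediate early and ERK feedback genes, 0.06 for p53 targets and 0.06 for histone genes, and 0.14 for glycolysis and hypoxia genes. SFN, the p53-induced 14-3-3 sigma, had -1.10 with Cdx2, -2.01 with Cdx1 at 24 h and -1.83 at 12 h, and EGR1, an immediate early transcription factor, had 0.94, 0.44 and -0.07. DUSP6, a phosphatase of ERK, had -0.74, -0.30 and -0.46, and its non-induced level was 1.28 higher in the Cdx2 clone.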

How the data were processed

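Deposited scanner output gives the intensity of each spot in Cy3 and in Cy5, without background subtraction. The deposited value table holds log2 values. Set against the scanner output, these were log2 of Cy3 over Cy5, with the mean of the blank spots taken off and every array's median moved to 0, and they served as an alternative. The software used to make these files is not given in the sources used here.

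Intensities were corrected by normexp with an offset of 50 and no local background, and each array was then normalized by loess with a span of 0.3, giving control spots no weight (limma 3.58.1, R 4.3.3). The offset draws the ratios of dim probes towards 0. For levels, both channels of all arrays were brought to one scale by quantile normalization of the mean log intensity (Aquantile), which leaves the ratios as they are. Of 24460 gene probes, 87.5%, 86.4% and 86.9% stood above the blank limit in both channels on the Cdx2 24 h, Cdx1 24 h and Cdx1 12 h arrays, and 3, 6 and 1 were left out as marked by the scanner. Probes of a gene were averaged (17227 probes). Gene symbols followed the platform annotation, of which 17238 probes carried a current RefSeq symbol, 2899 were updated, 98 were ambiguous and kept as given, 1 had no match and 4224 had none. The arrays name no genome build, so coordinates are given only for RefSeq promoters.

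The distance of a gene from the line is its Cdx2 ratio minus the value of the orthogonal line at its Cdx1 ratio. The line and the distances were tested on simulated data with known answers. Named genes were the most distant genes lying beyond the Cdx1 12 h ratio on the same side, up to 4 of each list by size of the difference, the genes highest and lowest on both arrays, genes with a large difference near the line, and the CDX genes. Other genes among the 41 past 2-fold, those with 2 probes, GYG1 and the further list members were named after their values were seen. The comparison, the gene lists and the members were chosen with earlier results of these data known. Alternatives were other normalizations, offsets, filters, lines and thresholds, and the Cdx1 12 h array in place of the Cdx1 24 h array.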

Additional observations from a re-analysis of the deposited data

Results flagged for a closer look

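Among the named genes that differed at least 1.5-fold at 24 h, 10 had the opposite sign on the Cdx2 array to that on both Cdx1 arrays, and the difference between the groups was not tested. LY6G6D had a log2 ratio of 0.02 with Cdx2, against -2.07 and -0.37 with Cdx1 at 24 and 12 h, a difference at 24 h of 2.09. TBX18 had -0.12 with Cdx2, against 1.36 and 1.96 (difference -1.47). JUN had 0.45, against -0.66 and -0.31 (difference 1.11). HOXA9 had 0.29, against -0.62 and -0.18 (difference 0.91). ISG15 had 0.28, against -0.53 and -0.13 (difference 0.82). AVPI1 had 0.51, against -0.30 and -0.16 (difference 0.81). CASP4, CD24P4, HSPB1 and SULT1C4 had 0.23, 0.14, 0.04 and 0.04 with Cdx2 and negative ratios on both Cdx1 arrays, with differences of 1.06, 1.22, 1.09 and 1.10. The Cdx2 ratios of LY6G6D, TBX18, CD24P4, HSPB1 and SULT1C4 were smaller in size than the SD between probes of a gene on that array (0.178).

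Among 3360 probes that passed the blank limit but carry no gene symbol here, 2 were at least 2-fold lower with Cdx2 and 0 at least 2-fold higher.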

How the results depend on the processing

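All 22 higher and 19 lower genes kept their direction under every alternative to the normalization, offset, line and source of ratios, and under the filters that kept them (22 and 17 under the stricter filter). Fewer kept 2-fold after scaling both arrays to one spread (12 and 7) or with an offset of 200 (8 and 4). Against the Cdx1 12 h array 17 and 16 kept their direction, and 1 and 6 kept 2-fold. The slope was 0.817 after median centring, 0.979 after scaling, 0.633 by least squares and 0.886 against the Cdx1 12 h array. After scaling, the arrays have by construction the same spread, which removes the overall weaker response.

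The counts of genes past 2-fold depended on how dim probes were treated. Higher genes numbered 85 with offset 0, 8 with offset 200, 224 after subtraction of the blank mean, 159 with the authors' values and 13 against the Cdx1 12 h array. Lower genes numbered 34 after median centring, 7 after scaling, 100 with offset 0, 4 with offset 200, 214 after subtraction of the blank mean and 278 with the authors' values. Genes above the line numbered 16 after median centring, 18 after scaling, 44 and 4 with offsets of 0 and 200, 135 after subtraction of the blank mean and 103 with the authors' values. Genes below it numbered 15, 7, 25, 1, 85 and 107 under the same settings in that order, 1 with no filter and 15 against the Cdx1 12 h array. At 1.5-fold there were 138 higher, 151 lower, 73 above the line and 34 below it. Genes changed by at least 0.5 in opposite directions numbered 40 after subtraction of the blank mean, 37 with the authors' values, 6 with offset 0, 2 after median centring and 1 after scaling, and 0 under the other settings.

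Against the Cdx1 12 h array 8 differences reversed, to 0.13 for GALR2, 0.0559 for IL17D, 0.0268 for TECTA, -0.15 for MT1B, -0.20 for MT1H, -0.18 for OASL, -0.24 for OLR1 and -0.0822 for SAMD9. With no filter, CCDC63 had a difference of -1.43 and TBX18 of -0.75, since a second probe below the blank limit was then averaged in. No paired analysis was possible because each group held 1 array and the groups share only replicate number 1. Precision is limited by there being 1 array per group, and probes near the blank spots have ratios that depend on the offset.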
